A study of Homo sapiens with 5 samples.

Results

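Occupancy of the retinoblastoma protein (Rb) was measured in cycling cells by CUT&RUN, a method in which a nuclease tethered by an antibody cuts out the DNA around its target for sequencing. The cells were parental ZR-75-1, a long-established breast cancer line that expresses hormone receptors, grown for 4 days with DMSO, the solvent control. There were 2 DMSO Rb libraries, described as independent cultures, and 1 library made from DMSO-treated cells with a mouse IgG2a antibody that recognises no chromatin protein. The series also holds Rb libraries from cells given 500 nM abemaciclib for the same time, which were not compared here. The peak lists held 1438 Rb peaks in replicate 1, 2582 in replicate 2 and 589 in IgG2a. The regions described are those on chromosomes 1 to 22 and X with a peak in both DMSO Rb replicates, sharing at least 1 bp, and with no IgG2a peak. There were 1039 of them among 2903 merged DMSO Rb regions, and 15036 merged Rb regions in the whole series. They held 1044 peaks of replicate 1 and 1059 of replicate 2. Peak lists hold no expression values, so the label of the cell line could not be checked against marker genes.

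Rb is a pocket protein that binds E2F transcription factors at the promoters of genes for DNA replication and cell division and keeps those genes silent in G1. Cyclin-dependent kinases phosphorylate Rb as cells approach S phase, which loosens its hold on E2F. A cycling culture holds cells in all phases, so a lower signal at a promoter from fewer cells with Rb there cannot be told apart from less Rb per cell.

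The DNA under some cell cycle promoters is shown first, so that the E2F pattern can be seen in place. The pattern was TTNNCGC with C or G at each N, read on either strand, and capitals mark every match. Each line is a window of 200 bp centred on the summit of replicate 1, from the best ranked promoter regions of cell cycle genes that held a match there, without that of MCM4, which is not shown, in GRCh38 and on the strand of the gene named. The summits stood at 39 and 59 fragments in replicates 1 and 2 for MCM5 (chr22:35399963-35400162, plus strand), 27 and 46 for EXO1 (chr1:241848039-241848238, plus strand), 27 and 26 for ASF1B (chr19:14136786-14136985, minus strand) and 23 and 32 for TIMELESS (chr12:56449245-56449444, minus strand). They stood at 27 and 29 for MTHFD1 (chr14:64387905-64388104, plus strand), 23 and 28 for MCM7 (chr7:100101368-100101567, minus strand), 24 and 32 for E2F1 (chr20:33686355-33686554, minus strand) and 16 and 35 for LIG1 (chr19:48170369-48170568, minus strand).
MCM5: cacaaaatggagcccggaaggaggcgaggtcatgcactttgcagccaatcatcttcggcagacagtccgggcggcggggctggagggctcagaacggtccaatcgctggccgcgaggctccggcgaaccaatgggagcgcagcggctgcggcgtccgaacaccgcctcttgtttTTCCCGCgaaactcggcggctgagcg
EXO1: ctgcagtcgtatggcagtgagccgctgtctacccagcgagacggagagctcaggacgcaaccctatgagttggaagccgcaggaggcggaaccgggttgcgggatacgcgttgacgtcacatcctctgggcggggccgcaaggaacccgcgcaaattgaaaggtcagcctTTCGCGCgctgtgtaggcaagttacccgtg
ASF1B: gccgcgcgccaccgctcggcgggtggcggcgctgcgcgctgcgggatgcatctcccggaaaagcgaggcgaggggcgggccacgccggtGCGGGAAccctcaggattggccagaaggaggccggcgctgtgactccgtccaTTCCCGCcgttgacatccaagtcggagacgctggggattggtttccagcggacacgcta
TIMELESS: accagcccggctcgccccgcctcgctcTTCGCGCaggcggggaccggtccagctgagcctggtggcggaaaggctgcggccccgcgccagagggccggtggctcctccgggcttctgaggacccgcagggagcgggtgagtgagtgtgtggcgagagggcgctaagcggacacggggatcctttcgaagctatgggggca
MTHFD1: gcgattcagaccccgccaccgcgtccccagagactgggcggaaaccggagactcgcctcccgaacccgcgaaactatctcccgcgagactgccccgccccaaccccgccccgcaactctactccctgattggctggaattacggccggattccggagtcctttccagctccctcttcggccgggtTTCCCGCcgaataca
MCM7: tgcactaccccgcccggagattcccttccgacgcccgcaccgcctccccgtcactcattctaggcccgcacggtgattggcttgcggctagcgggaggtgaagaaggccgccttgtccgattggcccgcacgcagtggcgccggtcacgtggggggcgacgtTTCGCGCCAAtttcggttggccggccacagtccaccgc
E2F1: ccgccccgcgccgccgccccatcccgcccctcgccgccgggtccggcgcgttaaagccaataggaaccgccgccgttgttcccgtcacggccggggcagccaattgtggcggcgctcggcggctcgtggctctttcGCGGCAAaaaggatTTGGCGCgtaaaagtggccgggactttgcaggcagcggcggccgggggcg
LIG1: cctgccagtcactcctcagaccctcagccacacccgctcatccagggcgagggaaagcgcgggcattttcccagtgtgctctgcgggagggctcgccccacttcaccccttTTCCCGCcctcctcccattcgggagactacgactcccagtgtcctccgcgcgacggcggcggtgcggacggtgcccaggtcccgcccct
In these windows the match lay at the annotated start site of MCM5 (0 bp), 8 bp downstream of that of EXO1 and 12 bp downstream of that of TIMELESS. In MCM7 a pair of overlapping matches lay 2 and 5 bp upstream of the start site, and in E2F1 a pair lay 16 and 30 bp upstream. The matches of ASF1B lay 252 and 304 bp upstream, that of MTHFD1 260 bp upstream and that of LIG1 110 bp upstream. These windows were chosen for holding a match. Of the 67 regions at cell cycle promoters, 32 held one in the replicate 1 summit window (47.8%, 36.3 to 59.5), and among the regions ranked above that of ASF1B those of CDC6, RPA3, CLSPN, PRIM1, CCNE2, RBL1 and PCNA did not. A match is a description of these letters and does not show that a factor was bound there.

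Rb signal at these regions was low in absolute terms and similar in order between the replicates. The number of fragments covering a summit was solved from the fold and the p-value of each peak, which succeeded for 100% of the peaks of both Rb libraries. The median region had 12 fragments at its summit in replicate 1, with a range of 6 to 84, and 14 in replicate 2, with a range of 6 to 97. The local background that the peak caller set against them had a median of 0.888 fragments in replicate 1 and 0.918 in replicate 2. The exact 95% Poisson interval of a summit of 6 fragments, which covers counting error only, reached 13.1, above the median of replicate 1. Across regions, Spearman's rho between the replicates was 0.709 for summit fragments and 0.612 for fold enrichment (n = 1039 regions, which share 2 libraries and are not independent replicates). Summits of the 2 replicates lay a median of 59 bp apart, and within 200 bp of each other in 929 regions (89.4%). Regions were a median of 449 bp wide.

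**Figure D1:**
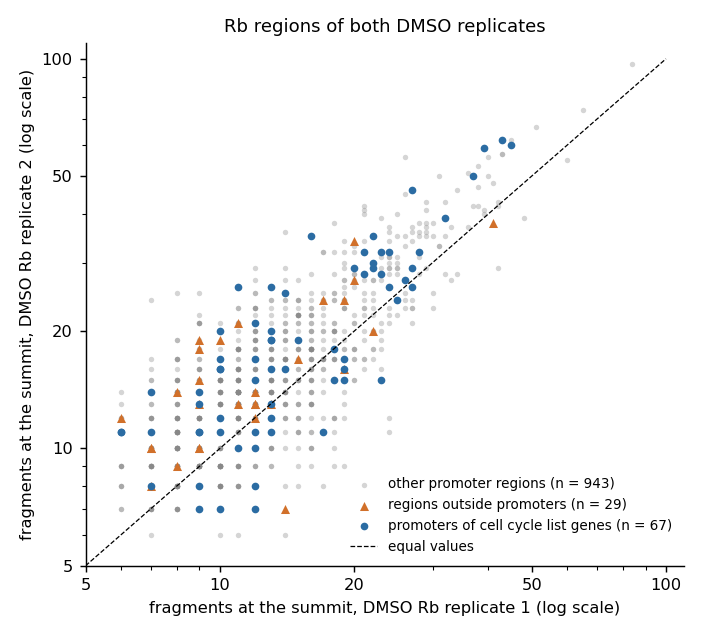
Fragments at the summit in DMSO Rb replicate 1 (x axis) and replicate 2 (y axis), both log scales, for the 1039 regions; blue points are promoters of cell cycle list genes, orange triangles regions outside promoters, grey points other promoter regions, and the dashed line equal values. Most points lie between 6 and 30 fragments in both replicates, and replicate 2 reaches 97.

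Regions found in both replicates differed from those found in 1 replicate in strength, which the selection itself favours, and in content. On the same chromosomes, 323 regions were found in replicate 1 only and 1386 in replicate 2 only. Their median summits stood at 9 fragments in either case, against 12 in replicate 1 and 14 in replicate 2 for the shared regions. The shared regions, merged from both lists, were a median of 449 bp wide, against 206 and 204 bp. Greater width by itself makes overlap with a promoter more likely. A promoter spanned 2000 bp before and 500 bp after a transcription start site (TSS) of any annotated transcript, and was overlapped by 97.2% of shared regions (95% Wilson interval 96.0 to 98.0), by 89.8% of those in replicate 1 only (86.0 to 92.6) and by 86.2% of those in replicate 2 only (84.3 to 87.9). The E2F pattern was found in the summit windows of 31.0%, 23.5% and 21.9% of these groups, with intervals of 28.3 to 33.9, 19.2 to 28.4 and 19.8 to 24.1. For promoters the interval of the shared group lay above both others, and for the E2F pattern it lay above that of replicate 2 only and met that of replicate 1 only. These shares were not tested, since regions of the same libraries are not replicates.

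The first 10 regions lay at promoters of genes with varied roles, of which CDC6 and MCM5 were on the cell cycle list. DTL, FANCG, DDX11, SLF2 and CENPX, described below, act in S phase, DNA repair or cohesion but were not on that list. Of the first 104 regions, 18 (17.3%, 11.2 to 25.7) lay at promoters of the list, against 67 of all 1039. In later groups of 103 or 104 regions along the order the share was 3.85% to 7.69%. Regions were ordered by the worse of their 2 ranks by p-value. The first lay 310 bp upstream of the TSS of LPCAT3, which encodes a phospholipid-remodelling acyltransferase, at chr12:7018489-7018979, with 65 fragments in replicate 1 and 74 in replicate 2. The second lay at chr16:2905130-2906043, at the promoter of a non-coding gene without a symbol and 6377 bp upstream of FLYWCH1, with 51 and 67 fragments. The third held the highest pileups of all, 84 fragments in replicate 1 and 97 in replicate 2, at chr1:212035144-212036106. It covered the start sites of INTS7, a subunit of the Integrator complex, and of DTL, the substrate receptor of the ubiquitin ligase that removes the licensing factor CDT1 in S phase. FANCG, a member of the Fanconi anaemia core complex that repairs DNA crosslinks, followed with 38 and 53 fragments at chr9:35079368-35080061, its summit 4 bp downstream of the TSS.

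The remaining regions of the first 10 were led by CDC6, which loads the replicative helicase onto origins. Its region at chr17:40287551-40288278 had 37 fragments in replicate 1 (exact Poisson interval 26.1 to 51.0) and 50 in replicate 2 (37.1 to 65.9), which overlap. DDX11, a helicase of sister chromatid cohesion, followed with 34 and 46 fragments. CTDSPL2, which encodes a small C-terminal domain phosphatase-like protein, had 60 and 55, the only one of the first 10 with more fragments in replicate 1. SLF2, which brings the SMC5/6 complex to damaged DNA, had 40 and 56. A single region with 45 and 62 fragments served both LRRC45, a centrosomal linker protein, and CENPX, a histone-fold protein of centromeres and of the Fanconi pathway. MCM5, a subunit of the helicase itself, closed the first 10 with 39 and 59 at chr22:35399860-35400180. All 10 regions lay among the first 30 peaks of both lists. The E2F pattern was present somewhere in each of these regions, but in the 200-bp window of the replicate 1 summit in only 3 of them, at CTDSPL2, SLF2 and MCM5. These regions were 321 to 1107 bp wide, and of all 1039 regions 55.2% held the pattern in a 400-bp window.

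Shared Rb regions were concentrated at start sites. Of the 1039 regions, 964 (92.8%, 91.0 to 94.2) overlapped the promoter of a coding gene, 46 that of non-coding genes only, and 29 no annotated promoter. The replicate 1 summit lay a median of 115 bp from the nearest coding TSS, within 100 bp of it in 480 regions (46.2%) and within 250 bp in 813 (78.2%). Among the 955 summits within 1000 bp of a coding TSS, the median position was 23 bp upstream and 390 (40.8%) lay downstream. By annotation, 279 summits (26.9%) fell in untranslated regions, 95 (9.14%) in coding exons, 262 (25.2%) in introns of coding genes and 292 (28.1%) between genes. The surrounding 1000 bp had a median GC content of 64.3%, and 993 regions (95.6%) met a CpG island criterion of at least 50% GC and an observed-to-expected CpG ratio of at least 0.6.

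**Figure D2:**
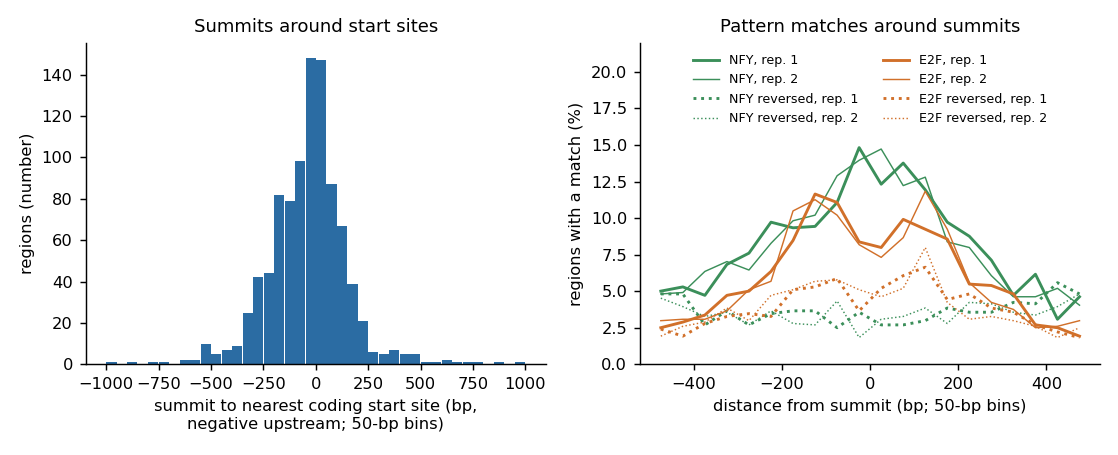
Left, number of regions by distance from the replicate 1 summit to the nearest coding TSS in 50-bp bins; right, percentage of regions with an NFY (green) or E2F (orange) match by distance from the summit, dotted lines being the patterns reversed, thick lines replicate 1 and thin lines replicate 2. Summits pile up at the TSS, NFY matches peak at the summit, and E2F matches are highest 125 bp away from it, to the left in replicate 1 and to the right in replicate 2.

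At least 1 shared region was present at the promoters of 1245 of 19962 coding genes, a background of 6.24%, against which the gene lists are read. Here and in the lists below, the peaks of a gene are those that overlap its promoter. Peaks at other sites in or near a gene were not counted. The cell cycle list of 196 genes had 66 with a region (33.7%, 27.4 to 40.5), 41.3% with a peak in replicate 1 and 49.5% with a peak in replicate 2, each replicate counted alone. The share differed between its parts. None of the coding gene lists had a promoter overlapped by an IgG2a peak, but only 6 of all 19962 coding genes had one, so this does not set the lists apart.

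Genes of origin licensing and of the helicase held regions at 13 of 29 promoters (44.8%, 28.4 to 62.5). Beside CDC6 and MCM5, the best ranked were MCM4 with 21 fragments in replicate 1 and 28 in replicate 2, and MCM7 with 23 and 28. MCM4 and MCM7 encode further subunits of the helicase ring. MCM3 had 14 and 25, and GMNN, which encodes the licensing inhibitor geminin, had 23 and 15. MCM2 stood at 9 and 13 fragments, with exact Poisson intervals of 4.12 to 17.1 and 6.92 to 22.2. These overlapped the intervals of MCM3, MCM4 and MCM7 in both replicates. Those of MCM5 lay above them, beginning at 27.7 and 44.9. MCM6, the last of the 6 genes of this ring, had a peak of 12 fragments in replicate 2 only. DBF4, the activator of the kinase CDC7, and GINS4, a helicase cofactor, had 21 and 25 fragments in replicate 2 and no peak in replicate 1.

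Among genes of the replication fork and of chromatin assembly, 18 of 37 promoters held a region (48.6%, 33.4 to 64.1), the highest share of the lists. The best ranked was a region of 43 and 62 fragments at chr7:7640171-7641168, which overlapped a start site annotated to RPA3, a subunit of the single-strand binding protein RPA, and the promoter of UMAD1. The canonical TSS of RPA3 lay 78024 bp away, so its assignment rests on a minor transcript. CLSPN, the checkpoint mediator claspin, had 45 and 60 fragments at chr1:35769221-35770307. PRIM1, the catalytic primase subunit, had 22 and 30, and PCNA, the sliding clamp, had 20 and 29 at chr20:5119363-5120161. The PRIM1 region also overlapped the promoter of HSD17B6, whose start site lay nearer to the summit. The histone chaperone ASF1B had 27 and 26, TIMELESS of the fork protection complex 23 and 32, and the ligase LIG1 16 and 35. These genes cover priming, elongation, ligation and chromatin assembly behind the fork, and regions with 7 to 12 fragments in either replicate were also found at RFC1, RFC3 and POLE3. That of POLE3 also overlapped the promoter of C9orf43, the nearest gene.

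Nucleotide supply genes held regions at 5 of 17 promoters (29.4%, 13.3 to 53.1). MTHFD1, of one-carbon metabolism, was the best ranked with 27 and 29 fragments. DUT, which removes dUTP, had 13 and 16, and TYMS, thymidylate synthase, had 13 and 20 at chr18:657426-658431. RRM2, the regulated subunit of ribonucleotide reductase, had 7 and 11 fragments, with intervals of 2.81 to 14.4 and 5.49 to 19.7. RRM2 was number 705 of 1039 in the order, TYMS number 349, and TK1 had a peak of 18 fragments in replicate 2 only.

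DNA repair and checkpoint genes held regions at 11 of 28 promoters (39.3%, 23.6 to 57.6). EXO1, an exonuclease of mismatch repair and end resection, led with 27 and 46 fragments at chr1:241847882-241848436. ATM, the double-strand break kinase, had 24 and 26 in a region shared with NPAT, the coactivator of histone genes. BRIP1, a Fanconi helicase, had 26 and 27. Genes with a single-replicate peak were BRCA1, CHEK2, MSH6 and PMS2 in replicate 1, at 7 to 12 fragments, and BARD1, BLM, BRCA2, CHEK1, NEIL3 and UNG in replicate 2, at 6 to 13 fragments. These values run from about the lowest shared summits, 6 fragments in either replicate, up to near the shared medians of 12 and 14.

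Among G1/S cyclins, kinases and their regulators, 6 of 22 promoters held a region (27.3%, 13.2 to 48.2). CCNE2, which encodes a cyclin that activates CDK2 at the G1/S transition, had 32 and 39 fragments in a region that also covered NDUFAF6. FBXO5, an inhibitor of the anaphase-promoting complex, had 28 and 32, CDC25A, the phosphatase that activates CDK2, had 19 and 15, and SKP2, which targets p27 for degradation, had 10 and 20. CDK4 had 12 and 11 fragments, and CDKN2C, a CDK4 and CDK6 inhibitor, had 6 and 12 in a region that also overlapped the promoter of FAF1, the nearest gene, and lay 10145 bp from the canonical TSS of CDKN2C. Promoters of cyclin genes were split. That of CCNE1 had a peak of 7 fragments in replicate 2 only, and that of CCND1 one of 15 in replicate 1 only. That of CCNA2 had none in either library.

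The genes of the Rb and E2F machinery itself were partly marked. Of 10 E2F and DP genes, E2F1 had 24 and 32 fragments at chr20:33686209-33686671 and E2F7, an atypical repressor, had 18 and 18 at chr12:77065357-77066083. E2F3, E2F8 and the dimerisation partner gene TFDP1 had peaks of 13, 10 and 17 fragments in replicate 2 only. Of 11 Rb family and MuvB genes, 4 had regions (36.4%, 15.2 to 64.6). RBL1, which encodes the pocket protein p107, had 22 and 35 fragments at chr20:37095659-37096300, and MYBL1, a MYB family factor, had 14 and 16. LIN52, a MuvB subunit, had 9 and 7 in a region that also overlapped the promoter of ALDH6A1, the nearest gene. RB1 itself had 6 and 11 at chr13:48303473-48304059, number 815 of 1039 in the order. RBL1 thus stood above RB1 in both replicates, with exact intervals that began at 13.8 and 24.4 where those of RB1 ended at 13.1 and 19.7.

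Genes of G2 and mitosis had the lowest share of the cell cycle lists, 7 of 42 promoters (16.7%, 8.32 to 30.6). NUSAP1, a spindle protein, had 21 and 32 fragments in a region shared with OIP5, and CCNF, which encodes the ubiquitin ligase cyclin F, had 25 and 24. The phosphatase CDC25C had 9 and 11, the centriole kinase PLK4 9 and 14, AURKA 13 and 11, TOP2A 11 and 10 and SMC4 17 and 11. The regions of CDC25C and AURKA also overlapped the promoters of FAM53C and CSTF1, whose start sites lay nearer to the summits. CDK1 had no promoter peak in either replicate. The interval of this share lies below that of the replication fork list and overlaps that of the origin licensing list, and the difference was not tested.

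**Figure D3:**
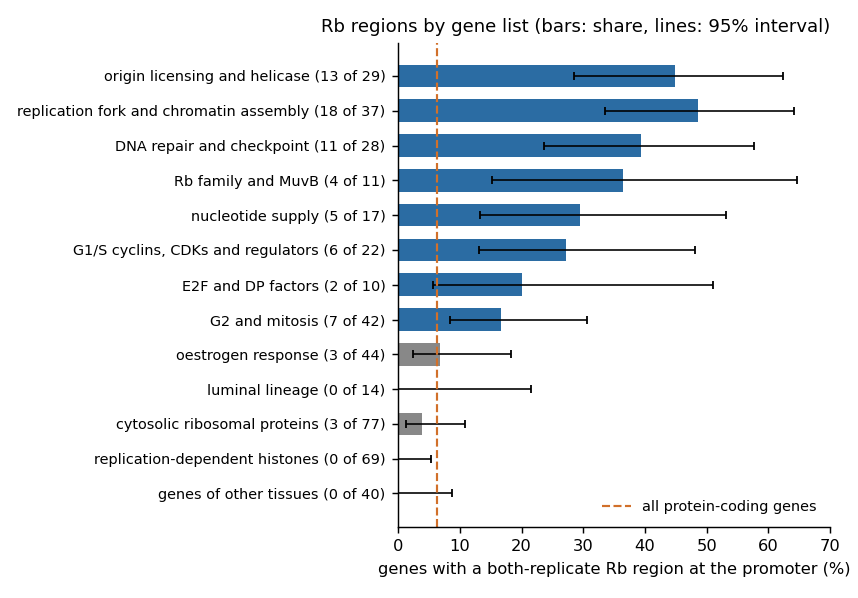
Percentage of genes in each list with a both-replicate Rb region at the promoter (x axis; bars), with 95% Wilson intervals (lines) and the share among all coding genes (dashed line, 6.24%); blue bars are cell cycle lists and grey bars others, and the numbers of genes stand beside each name. The intervals of 7 of the 8 cell cycle lists lie above the dashed line, that of the E2F and DP list reaches it, and the other lists lie around or below it.

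Lists outside the cell cycle were close to the background or under it. Of 44 oestrogen response genes, 3 had a region (6.82%, 2.35 to 18.2), a share near the background. With either replicate counted alone it was 5 of 44 (11.4%), against 7.86% and 12.4% of all coding genes in replicates 1 and 2. The 3 genes were MYC, the growth regulator, with 17 and 25 fragments, RBBP8, the end resection factor CtIP, with 17 and 17, and IGF1R, a growth factor receptor, with 9 and 11. The oestrogen receptor targets GREB1 and TFF1 had no promoter peak in either replicate. None of 14 luminal lineage genes had a shared region at the promoter, which allows up to 21.5% by the Wilson interval. TFAP2C had a promoter peak of 9 fragments in replicate 2 only, and the receptor gene ESR1 had none in either replicate. These values do not cover distal sites of such genes. None of 40 genes specific to other tissues had a promoter peak in either replicate, a share whose interval ends at 8.76%.

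Replication-dependent histone genes, which are transcribed in S phase, formed a contrast to the replication genes. None of 69 had a shared region, with an upper limit of 5.27%, under the background of 6.24%, and 2 of them, H2AC11 and H4C1, had a peak of 6 and 11 fragments in replicate 1 only. The CpG content of their start sites was lower than in the cell cycle list, 40 of 69 against 185 of 196 meeting the CpG criterion. Among those 40 the number was 0, with an upper limit of 8.76%, close to the 8.84% of all CpG-rich coding start sites. These intervals treat each gene as independent. Whether CpG content accounts for the absence was not tested. Cytosolic ribosomal protein genes, which are highly transcribed and mostly CpG-rich, had 3 of 77 (3.90%, 1.33 to 10.8). These were RPS20 with 18 and 20 fragments, RPS19 with 10 and 13, and RPS29 with 13 and 11, the last with its canonical TSS 12727 bp away. Small nuclear RNA genes, counted apart as non-coding and without a background share of their own, had a region at 6 of 1884 promoters. The symbols of 5 of them are those of pseudogenes, and the other was RNU7-1, the RNA of the histone pre-mRNA processing particle, with 17 and 32 fragments.

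The share of genes with a region also varied with CpG content, arrangement and chromosome. Among CpG-rich start sites, taking 1 canonical TSS per gene, 1145 of 12957 genes had a region (8.84%, 8.36 to 9.34), against 100 of 7005 others (1.43%, 1.18 to 1.73). Within CpG-rich start sites, 62 of 185 cell cycle list genes had one (33.5%, 27.1 to 40.6), so the list stood above the background at like CpG content. Genes in a divergent pair, with start sites on opposite strands within 1000 bp, had a region at 339 of 1895 (17.9%), against 906 of 18067 others (5.01%). A region between divergent start sites counts for both genes, and 269 of the 1039 regions (25.9%) overlapped more than 1 coding promoter. By chromosome, the share was highest on chromosome 16, at 102 of 856 coding genes (11.9%, 9.91 to 14.3), and lowest on X, at 10 of 859 (1.16%, 0.634 to 2.13). Chromosome 16 also held 15 of the 84 IgG2a peaks on the chromosomes described. Chromosome 1 held 14 of them and had a share of 6.36%. The shares by chromosome were not adjusted for CpG content or for DNA copy number, which peak lists do not give. Whether either accounts for the differences was not tested. Chromosome 19 held 100 regions, the most after the 119 of chromosome 1.

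Short sequence patterns were counted in the 200-bp summit windows and, for each, in the same letters reversed without complement, which keep the composition. For E2F, 322 of 1039 windows at replicate 1 summits held the pattern (31.0%, 28.3 to 33.9) and 313 (30.1%) at replicate 2 summits, against 18.1% and 18.5% for the reversed letters. In windows of the same length centred on start sites, all coding genes gave 12.3% and CpG-rich genes without a region 15.0%, the latter against 13.9% reversed. The form TTCCCGC was in 20.1% of the region windows, TTGGCGC in 5.97%, TTGCCGC in 5.00% and TTCGCGC in 4.52%. The reversed letters were thus also more frequent in the regions than at other start sites, and the E2F pattern exceeded them by a wider margin. In windows from 250 bp upstream to 50 bp downstream of a canonical TSS, the E2F pattern was found in 41 of 66 cell cycle genes with a region (62.1%, 50.1 to 72.9) and in 54 of 130 without one (41.5%, 33.4 to 50.1). In the other genes with a region it was found in 35.7% (33.0 to 38.5), and in all coding genes in 17.1%.

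The CCAAT box, the site of the factor NFY, was about as frequent as the E2F pattern and most frequent at the summit itself. Its letters CCAAT were in 32.6% (29.8 to 35.5) of the windows of replicate 1 and 34.8% of those of replicate 2, against 10.4% and 11.7% reversed, and in 25.1% of 200-bp windows of all coding start sites. The share of regions with a match averaged 13.6% in the 50-bp bins next to the replicate 1 summit and 5.05% in bins over 300 bp away. The E2F pattern averaged 8.18% and 3.18% at these distances, and its highest bin was not at the summit but 125 bp away, at lower coordinates (left) in replicate 1 (11.6%) and at higher coordinates (right) in replicate 2 (11.8%), whatever the strand of the gene. Its reversed letters averaged 4.43% next to the replicate 1 summit and 2.59% beyond 300 bp, and were also highest off the summit, at 6.64% and 7.99% in the bins 125 bp to the right. Of the regions, 116 held both patterns, 206 only E2F, 223 only CCAAT and 494 (47.5%) neither. Along the order, CCAAT was in 49 of the first 104 regions and in 17 of the last 103, whereas the E2F pattern was in 37 and 29 of them.

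Other patterns depended on where the window was placed. In the summit windows the ETS pattern CCGGAAG was found in 9.91%, the NRF1 pattern GCGCATGC in 2.69%, the YY1 pattern AAGATGG in 3.85% and the cyclic AMP response element TGACGT in 4.23%. In 200-bp windows centred on CpG-rich start sites without a region they were found in 15.1%, 3.95%, 6.16% and 8.39%. With both groups read from 250 bp upstream to 50 bp downstream of CpG-rich start sites, genes with and without a region gave 19.3% and 19.1% for ETS, 6.99% and 5.77% for NRF1, 8.65% and 6.93% for YY1, and 12.0% and 11.6% for the cyclic AMP response element. In these like windows the E2F pattern was in 445 of 1145 genes with a region and in 2527 of 11812 (21.4%) without one, and CCAAT in 50.5% and 33.5%. The SP/KLF pattern GGGCGG was in 67.9% of the summit windows and in 71.2% of the 200-bp windows at CpG-rich start sites without a region. The CHR element TTTGAA, through which the MuvB complex binds genes of G2 and mitosis, was in 4.14% of the windows and 3.72% of CpG-rich start sites without a region. The AP-1 pattern, TGANTCA with C or G at N, was in 0.866%, against 1.06% reversed and 0.999% of CpG-rich start sites without a region. The GATA pattern NNATAA, with AG or TG at its start, was in 2.79%, against 3.18% reversed and 2.07% of those start sites. In the windows of IgG2a peaks on chromosomes 1 to 22 and X the E2F pattern was found in 3 of 84 (3.57%, 1.22 to 9.98) and CCAAT in 16 (19.0%, 12.1 to 28.7). On other contigs of the reference CCAAT was in 75 of 223 IgG2a windows (33.6%, 27.8 to 40.1, against 11.2% reversed), a share like that of the Rb regions, and the E2F pattern in 1.

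**Figure D4:**
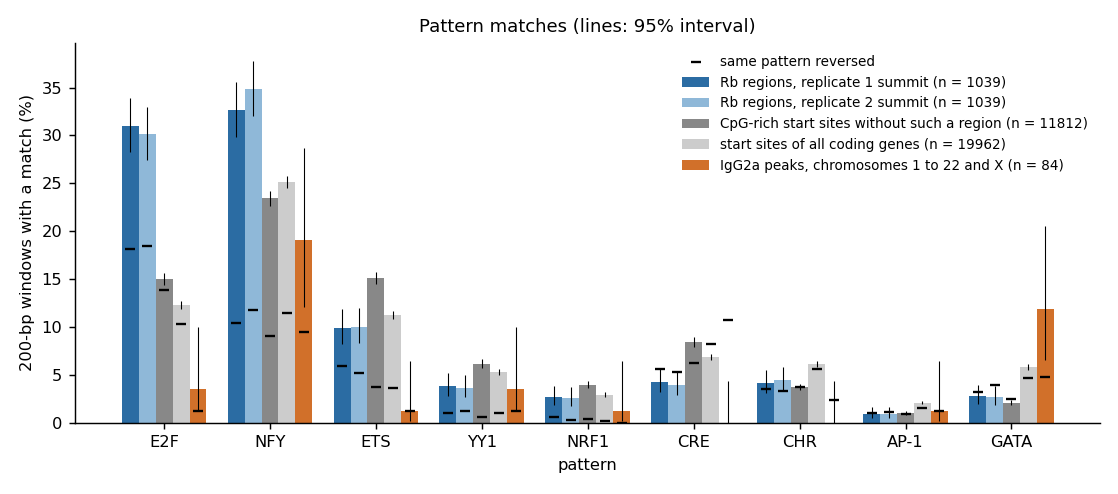
Percentage of 200-bp windows with a match to each pattern (bars) with 95% Wilson intervals (lines); short black marks give the same letters reversed. Blue bars are the Rb regions at the summits of the 2 replicates, grey bars start sites, and orange bars IgG2a peaks. E2F and NFY are the patterns for which the blue bars stand above both grey bars, which are centred on start sites and not on summits.

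The 29 regions outside promoters were led by one in an intron of GRIN1, a glutamate receptor gene, at chr9:137150360-137151376, with 41 fragments in replicate 1 and 38 in replicate 2. Its summit lay 2003 bp downstream of the TSS. The next lay 8266 bp inside CCM2L, with 20 and 34 fragments, and another 28073 bp from ZNF648, with 20 and 27. Regions of 22 and 20 fragments 15443 bp upstream of KPNA2, which encodes a nuclear import factor, and of 19 and 24 in an intron, nearest to ANK1, completed the first 5. The E2F pattern was in 7 of these 29 summit windows and its reversed letters in 8. One of the 29, chosen here after its values were seen, lay 22808 bp downstream of the TSS of CCNE1, at chr19:29844441-29844974, with 8 and 14 fragments, while the promoter of CCNE1 had a peak in replicate 2 only.

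The nearest coding genes of the last 5 regions were CNOT2, CLN6, CEP97, ISOC1 and SPATA31C2. Each of these regions had 8 fragments at the replicate 2 summit and a fold of 3.75. In replicate 1 they had 10, 14, 7, 10 and 7 fragments. The last of them lay in an intron of a non-coding gene, 58405 bp from the nearest coding TSS. It overlapped the promoter of the non-coding gene LINC03026, with its summit 362 bp from that start site. Of all regions, 525 (50.5%) had a q-value of at most 1e-05 in both replicates and 185 (17.8%) in neither.

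The IgG2a library had most of its peaks on other sequences than most Rb peaks. Of its 589 peaks, 505 (85.7%, 82.7 to 88.3) lay outside chromosomes 1 to 22 and X, against 71 of 1438 (4.94%) in Rb replicate 1 and 137 of 2582 (5.31%) in replicate 2. Rb peaks were called with IgG as the control, so part of this difference is set by the calling. The 52 regions of both Rb replicates outside these chromosomes had high Rb pileups, with a median of 397.5 fragments at the replicate 1 summit. Decoy contigs, which hold human sequence left out of the assembled chromosomes, had 282 IgG2a peaks on 202 contigs, contigs assigned to a chromosome but not placed on it had 124, and contigs of unknown chromosome had 99. The 5 contigs with the most held 114 peaks together. These were chr14_GL000225v1_random with 33, chr22_KI270736v1_random with 25, chrUn_GL000216v2 with 23, chrUn_KN707896v1_decoy with 17 and chr17_KI270729v1_random with 16. The decoy among them had a median of 496 IgG2a fragments at its summits, and it also had the most Rb peaks of any contig, 21 in replicate 1 and 22 in replicate 2. Median summits stood at 33.5 fragments on the unlocalised and 35 on the unplaced contigs, at 14 on the decoys as a whole and at 9 on chromosomes 1 to 22 and X.

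Overlap between Rb and IgG2a followed this division. Outside chromosomes 1 to 22 and X, 45 of 52 regions found in both Rb replicates overlapped an IgG2a peak (86.5%, 74.7 to 93.3). On chromosomes 1 to 22 and X none of 1039 did, with an upper limit of 0.368%, and none lay within 1 kb of one, the nearest being 1587 bp away. The requirement of no IgG2a peak therefore removed no region. An Rb peak had to exceed the IgG signal, which the peak caller took as its control, so part of this absence is set by the calling. IgG2a peaks also covered only 0.00064% of these chromosomes and the 1039 regions 0.017%. With so little covered, an absence of overlap says little about either library. Of the regions in replicate 2 only, 6 of 1386 overlapped an IgG2a peak.

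On chromosomes 1 to 22 and X the 84 IgG2a peaks lay mostly away from promoters and often in repeats. A promoter was overlapped by 8 of them (9.52%, 4.91 to 17.7), against 97.2% of the Rb regions, and promoter windows cover 8.45% of these chromosomes. Chromosome 16 had 15 of the peaks and chromosome 1 had 14. Repetitiveness was measured as the share of distinct words among all words of 6 letters in a 200-bp window, a measure chosen after the sequences were seen. The median was 71.0% in the IgG2a windows and 92.8% both in the Rb regions and at the start sites of all coding genes. A share under 75% was found in 43 of 84 IgG2a windows (51.2%, 40.7 to 61.6) and in 28 of 1039 Rb windows (2.69%, 1.87 to 3.87). On contigs of the reference, decoys aside, 149 of 223 IgG2a windows (66.8%) were under 75%, and in 108 (48.4%, 42.0 to 55.0) at least 20% of the letters lay in GGAAT, the unit of a satellite repeat, or its complement, which was so in 0 of the 1039 Rb windows.

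The IgG2a peak with the smallest p-value on these chromosomes is shown because its letters make the contrast with the promoter windows visible. It stood at 30 fragments at chr2:10014-10182, plus strand, next to the end of the chromosome, and the capitals mark the repeated unit CCACAC.
IgG2a peak 1: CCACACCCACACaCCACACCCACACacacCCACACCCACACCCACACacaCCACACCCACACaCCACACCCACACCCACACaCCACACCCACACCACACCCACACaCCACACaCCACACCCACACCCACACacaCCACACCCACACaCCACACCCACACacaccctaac
The next lay at chr13:30844111-30844318 with 28 fragments and 5.64% distinct words, chr16:33336569-33336910 with 38 fragments and 24.6%, chr11:7739672-7739849 with 22 fragments and 96.4%, and chr1:228635247-228635767 with 24 fragments and 65.6%. Of these 5 only the last overlapped an annotated promoter, and none had an Rb peak in either replicate. A summit above the 38 fragments of the highest of these 84 peaks was found in 20 of the 1039 Rb regions in replicate 1 and in 38 in replicate 2.

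**Figure D5:**
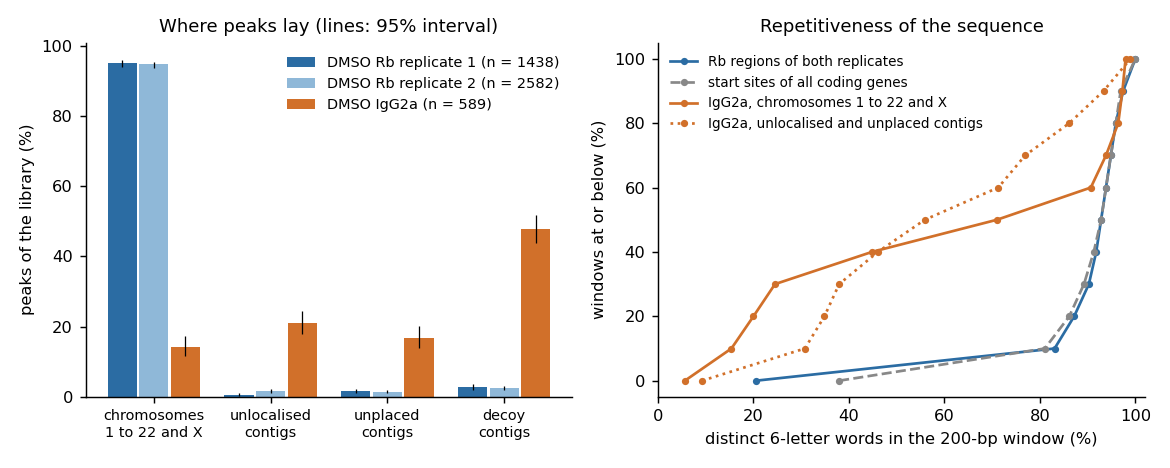
Left, percentage of each library's peaks by class of sequence, with 95% Wilson intervals (lines), for the 2 DMSO Rb libraries (blue) and IgG2a (orange). Right, cumulative share of 200-bp windows (y axis) by the percentage of distinct words of 6 letters (x axis), low values being repeats. Rb peaks lie at about 95% on chromosomes 1 to 22 and X and IgG2a peaks at 14.3%, and over the lower 50% of windows the IgG2a curves lie to the left of the Rb and start site curves.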

How the data were processed

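Peak lists of DMSO Rb (n = 2 independent cultures) and DMSO IgG2a (n = 1) were used. The authors aligned paired-end reads to GRCh38 with Bowtie2 (2.3.4.1), removed mitochondrial and blacklisted reads, kept duplicates and called peaks per library with MACS2 (2.2.7.1) at q = 0.05, with the matched IgG as the control for Rb. Whether the IgG2a list was called against a control is not given in the sources used here. Deposited lists give for each peak a fold enrichment, the ratio of pileup plus 1 to background plus 1, and a summit offset. They also hold 2 deposited −log10 columns, for the Poisson p-value and the q-value. Lists hold no read counts, so the count model of the study was not run and no test was made.

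The pileup at each summit was solved as the whole number that satisfies both fold and p-value (tolerance 0.001). The lowest background and the least peak width implied 12.3 M and 13.6 M fragments for Rb and 9.81 M for IgG2a, assuming an effective genome of 2.7 Gb. Peaks sharing at least 1 bp were merged. GENCODE 44 gave genes, and decoy contigs outside the reference entered no sequence count. Intervals are Wilson 95% intervals for shares and exact Poisson intervals for pileups, and cover counting error only. Python (3.11.15), pandas (2.3.3), scipy (1.17.1), pysam (0.24.0) and bedtools (2.31.1) were used. The pileup solution and the pattern search were tested on simulated data, and overlap and merging of the peak lists were checked against bedtools.

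Named items were the 10 best and 5 last regions, up to 4 best genes per list, a set of cell cycle and receptor genes given whatever they showed, the 5 best regions outside promoters and the 5 leading IgG2a peaks and contigs, with others named where counts needed them. A few items that this rule names are not reported here. The regions and gene lists were chosen with earlier results of these data known. The CpG-rich and 200-bp start site comparisons and the repeat measures were chosen after values were seen.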

Additional observations from a re-analysis of the deposited data

Results flagged for a closer look

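Outside chromosomes 1 to 22 and X, 7 of the 52 regions found in both DMSO Rb replicates overlapped no IgG2a peak, a signal outside the chromosomes described above. Of these 7, 5 lay on contigs assigned to a chromosome or of unknown place and 2 on decoys. One on chr14_KI270722v1_random had 20 fragments in replicate 1 and 29 in replicate 2, with folds of 7.24 and 9.66, in the range of the promoter regions, and one on chrUn_GL000195v1 had 10 and 15, with folds of 6.67 and 9.54. The region on chrUn_KN707959v1_decoy had 32 and 39 fragments with folds of 2.64 and 2.90, and that contig held 2 IgG2a peaks elsewhere, whereas the contigs of the other 6 held 0.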

How the results depend on the processing

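Of 81 values under 17 other settings, 52 stayed within 1.5 times the count or within the interval of the share given, and 29 moved. With q at most 1e-05 in every list, 525 regions were left, the overlap of replicate 1 peaks with replicate 2 went from 76.3% to 82.3%, the E2F share to 33.9%, coding genes to 3.19%, the cell cycle list to 23.0% and IgG2a peaks outside chromosomes 1 to 22 and X to 92.1%. At q of 0.01 coding genes came to 5.70%. A reciprocal overlap of 50% gave 57.9% for the overlap, 4.70% for coding genes and 26.0% for the cell cycle list. Summits within 200 bp gave 68.6% and 5.55%, and lists of equal size 62.7% and 5.08%, for overlap and coding genes. A promoter of 500 bp on each side was overlapped by 96.0% of regions, and coding promoters by 92.8%. The E2F share was 14.7% in 100-bp and 55.2% in 400-bp windows, and 9.24% for the pattern with 1 more leading T.

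With peaks of 1 replicate alone, without replicate 1 or without replicate 2, regions numbered 1367 to 2439, the promoter share was 91.2% to 95.4%, the E2F share 25.5% to 29.3%, coding genes 7.86% to 12.4%, the cell cycle list 41.3% to 49.5%, regions over an IgG2a peak 61 to 97, and those on chromosomes 1 to 22 and X 0 to 6. The cell cycle share was 3.98 to 7.21 times the coding share in every setting that gave both. No region was removed by either IgG2a rule. No paired analysis was possible because no test was run. A region under the threshold in 1 library counts as absent there, and summits of 6 to 10 fragments limit any comparison of single genes.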
